A study of Mus musculus with 30 samples.

Results

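Protein phosphatase 2A (PP2A) subunit mRNAs were followed in mouse embryonic stem cells (ESCs) whose own Ppp2r1b mRNA, coding for a scaffold subunit, was targeted by an shRNA. The genes examined were chosen by symbol: Ppp2r1a, Ppp2r1b, Ppp2ca, Ppp2cb, Ppp2r2a, Ppp2r2d, Ppp2r5a, Ppp2r5c, Ppp2r5d and Ppp2r5e. Of these 10 genes, 8 had a probe among the 18097 gene symbols on the array, with 15 of the 25697 probes between them. Ppp2r2a and Ppp2r5a matched no probe and were not analysed here. The question asked was whether other subunits shift in the clone in which Ppp2r1b is targeted.

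PP2A is a serine/threonine phosphatase that works as a complex. A scaffold (A) subunit, made from Ppp2r1a or Ppp2r1b, holds a catalytic (C) subunit, made from Ppp2ca or Ppp2cb, and a regulatory (B) subunit that sets the location and the substrates of the enzyme. The B subunits come in families, of which Ppp2r2 genes code for the B55 type, known for its part in leaving mitosis, and Ppp2r5 genes for the B56 type, known for its work at kinetochores.

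All 30 arrays were hybridized with RNA of Ainv15, a mouse ESC line that carries a reverse tetracycline transactivator. Each rescue clone (Bub1b_R, Chek1_R, Ppm1g_R and Ppp2r1b_R) carried an shRNA to the gene in its name together with a copy of that gene built to escape the shRNA and switched on by doxycycline (Dox). Control_R was the control rescue clone, whose labels also give the strain 129P2/OlaHsd. Each of the 5 clones was grown in LIF with Dox at 1 µg/ml (+Dox) or for 5 days without it (-Dox), with 3 arrays per condition. The model has limits in every group: the cells were first kept on fibroblast feeders and then moved to gelatin, several independent clones were made per gene without the labels saying which was hybridized, and the labels do not say that the arrays of a condition came from separate cultures, so that p-values measure the spread between these arrays, which may be technical.

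Levels are log2 intensities after background correction and quantile normalization over the 30 arrays. Of the 15 probes, 14 were tested, since Ppp2r5c probe ILMN_2758061 was detected on 0 of the 30 arrays. A probe counts as changed at a limma adjusted p (Benjamini-Hochberg over the 15151 tested probes) under 0.05 and at least 1.5-fold, and it is said to pass the test at that adjusted p alone. Between 11733 and 13685 probes were detected per array, and arrays of a condition correlated at r between 0.990 and 0.997 across probes.

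Several features of the arrays bear on every comparison. On the 12 Control_R and Bub1b_R arrays the dimmest detected probe read 12.9 to 20.9 before normalization, and on the 18 others 27.8 to 58.1, so that a difference in level between Ppp2r1b_R and Control_R cannot be told apart from a difference between these array sets. These sets are read from that signal alone, since the labels name no batch. The sample records of Control_R are numbered in a separate, lower range than those of the other clones, Bub1b_R included. A difference in level between Control_R and any other clone hence cannot be told apart from one between separately recorded samples. A change on Dox withdrawal lies within a set. The targeted mRNAs checked the labels: Ppm1g was lower without Dox in Ppm1g_R by a log2 difference of -1.25 (SE 0.10, limma adjusted p = 4.50e-09), and Bub1b differed by -0.14 in Bub1b_R (SE 0.08, limma adjusted p = 0.217) and was lower there than in Control_R without Dox by a log2 difference of -0.67 (1.59-fold, limma adjusted p = 1.05e-07). Chek1 ran against its label as far as its probe reads the rescue copy, being higher without Dox on the arrays labelled Chek1_R by 0.71 (SE 0.16, limma adjusted p = 1.15e-03), although lower there than in Control_R without Dox by a log2 difference of -1.07 (limma adjusted p = 3.06e-06). Per the study's methods the Chek1 and Bub1b rescue copies lack the stretch that their shRNAs target, and the sources used here do not say where the probes lie, so that a probe in a stretch the copy lacks would read endogenous mRNA alone and would not check the label. On these arrays the summed level of the 4 primitive streak markers described next was 184 with Dox and 2850 without, against 163 and 190 in Control_R. The sum of the 8 ESC markers was 30029 and 27122 there and also fell in Control_R. Where a difference from Chek1_R and Ppm1g_R together, or from the mean of the 3 other targeted clones, is given, the value without these arrays stands beside it.

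The cells carried the markers of ESCs. All 8 genes of an ESC marker list were tested, with Esrrb the most abundant, and their summed linear level averaged 26131 in Ppp2r1b_R with Dox and 16921 without, against 35041 and 30705 in Control_R. All 8 passed the test as lower on Dox withdrawal in Ppp2r1b_R, where 12.9% of all probes were lower and 12.4% higher by that test. Of 7 fibroblast markers, 4 were tested, with Thy1 the most abundant, while Col1a2, Postn and Lum were not detected on enough arrays, and the summed level of the 4 was 475 with Dox and 591 without in Ppp2r1b_R against 644 and 655 in Control_R. That sum follows Thy1, which was lower in Ppp2r1b_R than in Control_R without Dox by a log2 difference of -0.70 (limma adjusted p = 3.26e-09), whereas Col1a1, Dcn and Col3a1, genes of the fibroblast matrix, were higher by 1.12, 1.18 and 0.36 (limma adjusted p = 6.50e-05, 3.57e-06 and 0.0435). On withdrawal in Ppp2r1b_R Col1a1 and Dcn changed, by 1.03 and 0.84 (limma adjusted p = 8.87e-04 and 1.22e-03). The 4 primitive streak markers, with T (brachyury) the most abundant, summed to 347 with Dox and 1128 without in Ppp2r1b_R and to 163 and 190 in Control_R. The part of these shifts in the subunit values was not tested, and in bulk RNA fewer cells of a type and less RNA per cell cannot be told apart.

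The listed sequences behind the Ppp2r1b design are shown next. Any link between them and the level of Ppp2r1b on these arrays was not tested. The construct's shRNA site in Ppp2r1b is 21 bases long, and the mutagenesis primers listed for the immune Ppp2r1b copy are 44 bases long. When the site was slid along both primers, the best window matched 10 of the 21 bases. The sequences run 5′ to 3′, and capitals in a primer window mark bases that differ from the site. The Ppm1g pair, for which the same search matched 18 of 21 bases, is shown for comparison.

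Ppp2r1b shRNA site: gctccgtctcaacagtattaa

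Ppp2r1b primer, best window: gctcTCGcCGaGcagCTGGGa

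Ppm1g shRNA site: gccttgtactgtgccaaatat

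Ppm1g primer, best window: gccttgtaTtgCgcTaaatat

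In Ppm1g the window differs from the site in 3 single bases. The same held for Acvr2a, Dyrk3, Mapk13 and Mapk4, whose constructs are in the same lists but whose clones are not among these samples: all 5 other genes matched 18 of 21 bases. The listed Ppp2r1b primers hence hold no stretch close to the listed shRNA site. Whether the copy in the Ppp2r1b_R clone matches its site was not tested, since the insert's own sequence was not used here.

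Ppp2r1b, the targeted scaffold gene, read lower in its own clone than on any array of the other targeted clones, with Dox and without, and did not move detectably with Dox. Its probe, ILMN_3090530, was detected on all 30 arrays. In Ppp2r1b_R the levels were 6.23, 6.20 and 5.84 with Dox and 6.16, 6.49 and 6.21 without. The ranges with and without Dox overlapped, and the log2 difference (-Dox minus +Dox) was 0.20 (SE 0.15, 95% interval -0.11 to 0.51, limma adjusted p = 0.365). The direction, if any, was a higher level without Dox, on 6 of 9 array pairs. By qRT-PCR the paper also examined the targeted genes of its rescue clones, Ppp2r1b_R included, in medium with Dox. It reports a complete or partial return of pluripotency gene expression in this clone with Dox. Those measurements were not compared with this probe.

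The other clones set the scale for that level. In Ppm1g_R Ppp2r1b read 7.20, 7.10 and 6.77 with Dox and 7.40, 7.31 and 7.29 without. On the arrays labelled Chek1_R it read 7.22, 7.00 and 7.13 with Dox and 7.43, 7.08 and 7.25 without. In Bub1b_R it read 7.17, 7.16 and 7.25 with Dox and 7.31, 7.80 and 7.58 without. Each of the 18 arrays of these 3 clones lay above each of the 6 Ppp2r1b_R arrays. In Control_R the levels were 6.74, 6.52 and 6.84 with Dox and 6.28, 6.92 and 6.40 without, which overlapped Ppp2r1b_R without Dox but lay wholly above it with Dox.

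**Figure D1:**
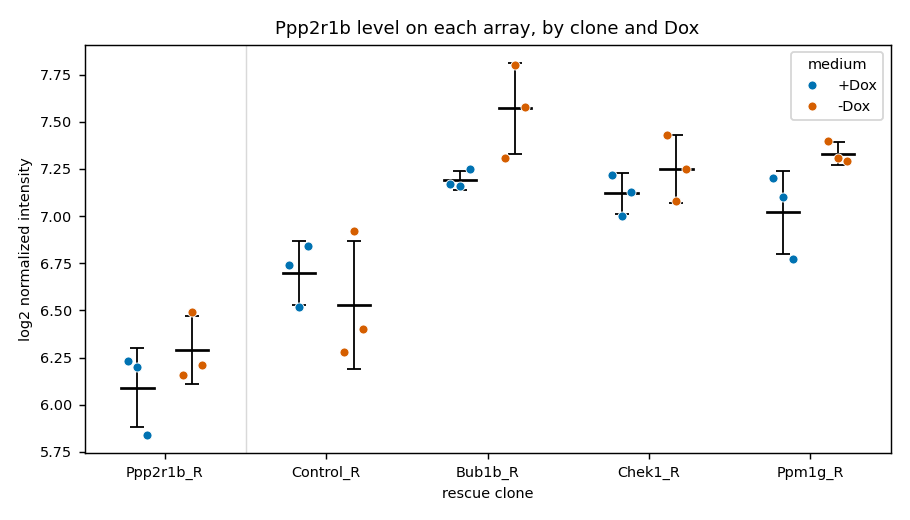
Level of Ppp2r1b (log2 normalized intensity, vertical axis) on each array by rescue clone (horizontal axis), with Dox in blue and without in orange; bars are the mean and SD of 3 arrays. The 6 Ppp2r1b_R arrays lie between 5.84 and 6.49, below all arrays of Bub1b_R, Chek1_R and Ppm1g_R.

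Against the 2 clones of its own array set, Chek1_R and Ppm1g_R, Ppp2r1b was lower without Dox by a log2 difference of -1.0 (2.01-fold, SE 0.13, limma adjusted p = 6.74e-07). The difference was -1.04 against Ppm1g_R alone (limma adjusted p = 3.03e-06) and -0.97 against the arrays labelled Chek1_R alone (limma adjusted p = 1.33e-05). With Dox, a comparison added after the data were seen, it was -0.98 (SE 0.13, limma adjusted p = 2.02e-06), and -0.94 against Ppm1g_R alone (limma adjusted p = 2.09e-05). The change on withdrawal in Ppp2r1b_R minus the mean change in the 3 other targeted clones was -0.07 (95% interval -0.43 to 0.29, limma adjusted p = 0.837), and without the arrays labelled Chek1_R it was -0.14 (limma adjusted p = 0.686).

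Against Control_R, Ppp2r1b read lower in both media and passed the test in the medium with Dox. With Dox, Ppp2r1b was lower in Ppp2r1b_R by a log2 difference of -0.61 (1.53-fold, SE 0.15, limma adjusted p = 1.24e-03), a call that was lost without either Ppp2r1b_R +Dox replicate 3 (-0.49) or Control_R +Dox replicate 3 (-0.54), both under 1.5-fold. Without Dox the difference was -0.25 (95% interval -0.56 to 0.07, limma adjusted p = 0.158), and with median scaling, which sets arrays to the same median in place of equal quantiles, it was -0.29 (limma adjusted p = 0.0479), or -0.11 relative to the median of all probes. The change in Ppp2r1b_R minus the change in Control_R was 0.37 (95% interval -0.08 to 0.81, limma adjusted p = 0.324), so that the media were not shown to differ.

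Clones that do not target Ppp2r1b also differed from Control_R at this probe. Without Dox it was higher by 1.03 in Bub1b_R (2.05-fold, limma adjusted p = 3.19e-06), by 0.80 in Ppm1g_R (limma adjusted p = 6.70e-05) and by 0.72 on the arrays labelled Chek1_R (limma adjusted p = 2.51e-04). Bub1b_R shares the array set of Control_R, but its sample records are numbered apart from those of Control_R. Ordered by their means, the 10 conditions ran from 6.09 in Ppp2r1b_R with Dox, 6.29 in Ppp2r1b_R without and 6.53 in Control_R without to 7.57 in Bub1b_R without. Each of the 9 pairs of neighbours in that order overlapped. The sources used here do not say which stretch of the mRNA the probe reads, so endogenous mRNA and rescue copy cannot be told apart at it.

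Ppp2r1a, the other scaffold gene, was lower in Ppp2r1b_R than in its array set and did not change on Dox withdrawal. Its levels in Ppp2r1b_R were 10.88, 10.57 and 10.41 with Dox and 10.56, 10.77 and 10.64 without. Without Dox it read 11.11, 11.08 and 11.18 on the arrays labelled Chek1_R, 11.08, 10.77 and 10.79 in Ppm1g_R and 10.92, 11.05 and 10.88 in Control_R. The Ppp2r1b_R arrays without Dox were level with or below the lowest of these arrays. The log2 difference was -0.35 from the 2 clones of the set (SE 0.09, limma adjusted p = 3.40e-03) and -0.29 from Control_R (SE 0.11, limma adjusted p = 0.0212), both under 1.5-fold. It was -0.23 against Ppm1g_R alone (limma adjusted p = 0.0877), so that without the arrays labelled Chek1_R it did not pass the test in this medium. With Dox, added after the data were seen, the difference was -0.40 from the 2 clones (limma adjusted p = 1.33e-03) and -0.34 from Ppm1g_R alone (limma adjusted p = 0.0148), so that there it passed without those arrays as well. With arrays set to the same median the differences were larger and past the 1.5-fold limit, -0.70 from the 2 clones of the set (limma adjusted p = 1.90e-06) and -0.60 from Control_R (limma adjusted p = 7.20e-05), or -0.51 and -0.42 relative to the median of all probes, and against Ppm1g_R alone the difference then passed the test at -0.51 (limma adjusted p = 6.73e-04).

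The withdrawal of Dox moved Ppp2r1a in Ppp2r1b_R by 0.04 (95% interval -0.18 to 0.26, limma adjusted p = 0.831). In Bub1b_R without Dox, Ppp2r1a was higher than in Control_R by 0.38 (SE 0.11, limma adjusted p = 4.79e-03), and by 0.64 with arrays set to the same median. Over the 10 condition means its level followed that of Ppp2r1b with Pearson r = 0.871, the highest value among the other 13 member probes. This is a description over 10 conditions that share clones and array sets.

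Of the catalytic subunits, Ppp2cb was higher in Ppp2r1b_R than in Control_R and its array set with quantile normalization, and Ppp2ca was higher than in Control_R without Dox, but not with every scaling. Ppp2cb read 12.09, 12.10 and 12.13 with Dox and 12.23, 12.10 and 12.18 without in Ppp2r1b_R. In Control_R it read 11.52, 11.79 and 11.61 with Dox and 11.75, 11.71 and 11.68 without. Without Dox it read 11.81, 11.76 and 11.73 in Ppm1g_R and 11.91, 11.93 and 11.95 on the arrays labelled Chek1_R. Every Ppp2r1b_R array stood above all of these arrays. Bub1b_R without Dox read 11.97, 12.01 and 12.12, which overlapped Ppp2r1b_R, and was above Control_R by 0.32 (limma adjusted p = 8.08e-05), as the arrays labelled Chek1_R were by 0.21 (limma adjusted p = 3.86e-03).

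Ppp2cb was higher in Ppp2r1b_R than in Control_R by a log2 difference of 0.46 without Dox (SE 0.06, limma adjusted p = 5.16e-07) and 0.47 with it (limma adjusted p = 4.32e-07), and higher than in its array set without Dox by 0.32 (SE 0.05, limma adjusted p = 1.41e-05), or 0.40 against Ppm1g_R alone (limma adjusted p = 4.83e-06; 0.07 with arrays set to the same median, limma adjusted p = 0.591). The differences from Control_R and from the array set depended on the scaling: with arrays set to the same median in place of equal quantiles they were 0.04 (limma adjusted p = 0.729), 0.06 (limma adjusted p = 0.622) and -0.09 (limma adjusted p = 0.422). That scaling moved the median of all probes to -0.18, -0.18 and -0.19, and relative to it Ppp2cb stood at 0.22, 0.24 and 0.10. The change on withdrawal was 0.06 (95% interval -0.06 to 0.19, limma adjusted p = 0.505) in Ppp2r1b_R, while Bub1b_R had 0.22 (SE 0.06, limma adjusted p = 9.14e-03).

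Ppp2ca read 13.13, 13.12 and 13.11 with Dox and 13.12, 13.07 and 13.14 without in Ppp2r1b_R. In Control_R it read 13.02, 13.01 and 13.16 with Dox and 12.96, 12.92 and 12.87 without. Without Dox the Control_R arrays were the lowest of all conditions and did not overlap Ppp2r1b_R. The difference was 0.20 (SE 0.06, limma adjusted p = 5.54e-03), and the other clones stood above Control_R too, by 0.30 in Ppm1g_R, 0.22 on the arrays labelled Chek1_R and 0.34 in Bub1b_R (limma adjusted p = 9.37e-05, 3.11e-03 and 3.16e-05). With arrays set to the same median the Ppp2r1b_R difference turned to -0.29 (limma adjusted p = 5.61e-03), or -0.11 relative to the median of all probes, that of Ppm1g_R was 0.10 (limma adjusted p = 0.322) and that of Bub1b_R 0.57. Within its array set, Ppp2r1b_R without Dox differed by -0.06 from Chek1_R and Ppm1g_R together (limma adjusted p = 0.326) and by -0.11 from Ppm1g_R alone (limma adjusted p = 0.140), which became -0.45 and -0.39 with median scaling (limma adjusted p = 1.15e-05 and 5.38e-04), or -0.27 and -0.24 relative to the median of all probes. On Dox withdrawal Ppp2ca moved by -0.01 in Ppp2r1b_R (95% interval -0.13 to 0.11, limma adjusted p = 0.934).

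Ppp2r2d, the only B55 gene with a tested probe among the chosen genes, was lower in Ppp2r1b_R in both media. Its levels were 10.50, 10.54 and 10.59 with Dox and 10.61, 10.36 and 10.49 without in Ppp2r1b_R. In Control_R they were 11.01, 10.87 and 10.76 with Dox and 10.91, 10.78 and 10.73 without. The 2 clones did not overlap in either medium, with a log2 difference of -0.33 with Dox (SE 0.08, limma adjusted p = 5.73e-04) and -0.32 without (SE 0.08, limma adjusted p = 8.89e-04). With arrays set to the same median these were -0.61 and -0.60 (limma adjusted p = 4.00e-05 and 3.65e-05), past the 1.5-fold limit, or -0.43 and -0.42 relative to the median of all probes. Against Ppm1g_R, from the same array set, the difference without Dox was -0.33 (limma adjusted p = 7.12e-04), and against the arrays labelled Chek1_R it was -0.10 (limma adjusted p = 0.290), which became -0.61 and -0.52 with median scaling (limma adjusted p = 4.78e-05 and 3.17e-04). Dox withdrawal moved Ppp2r2d in Ppp2r1b_R by -0.06 (95% interval -0.21 to 0.10, limma adjusted p = 0.647), and on the arrays labelled Chek1_R it fell by 0.23 (SE 0.08, limma adjusted p = 0.0244), a call lost with median scaling (-0.10, limma adjusted p = 0.574).

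**Figure D2:**
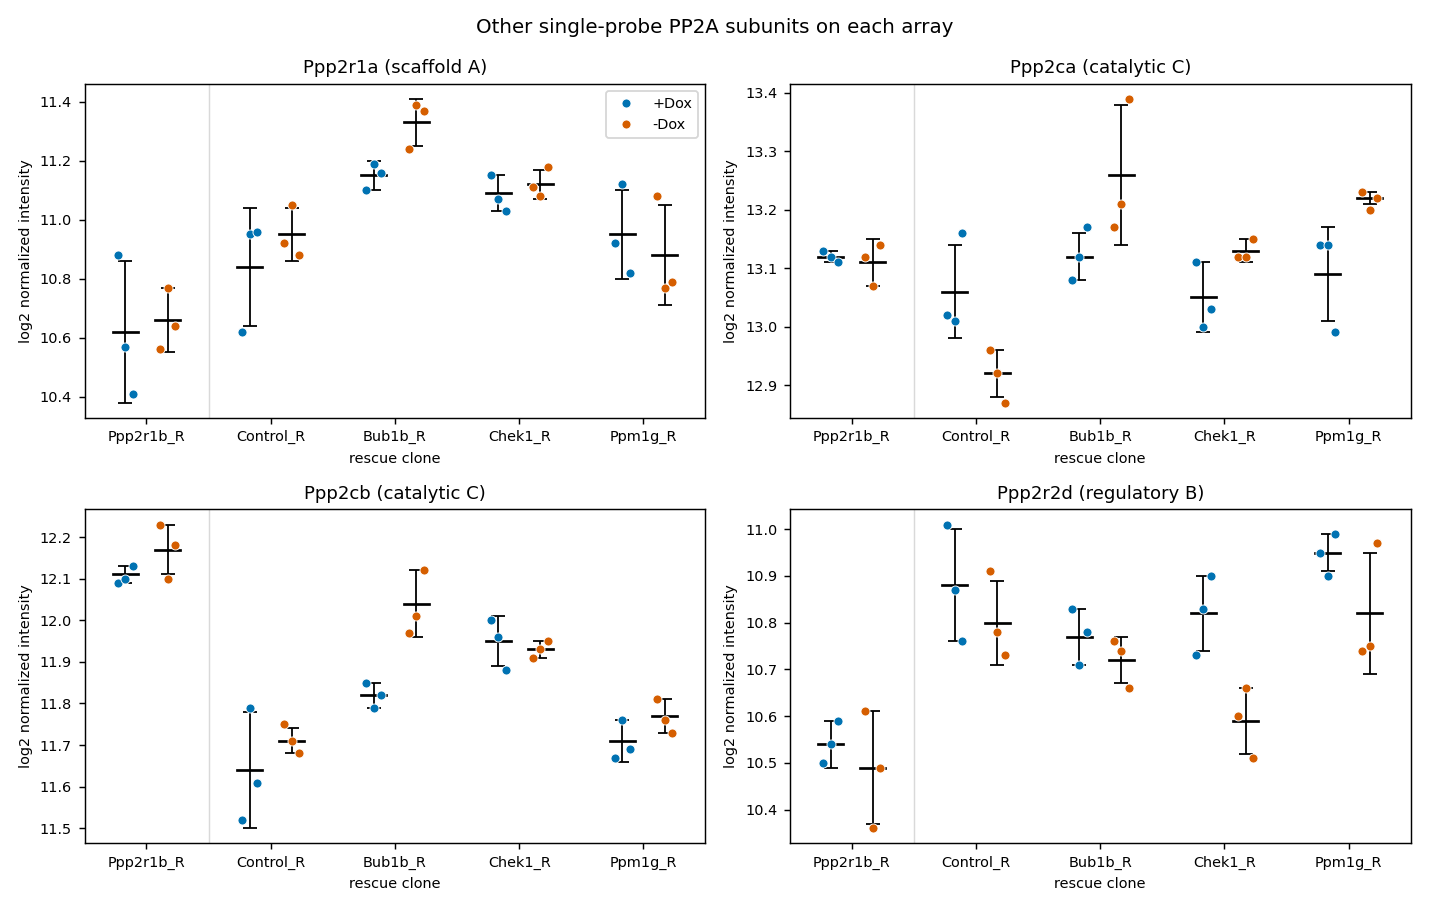
Levels of Ppp2r1a, Ppp2ca, Ppp2cb and Ppp2r2d (log2 normalized intensity, vertical axes, each with its own range) on each array by rescue clone, with Dox in blue and without in orange; bars are the mean and SD of 3 arrays. In Ppp2r1b_R both media overlap in each panel, while Ppp2cb lies above and Ppp2r2d below the Control_R arrays under quantile normalization.

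Ppp2r5c, a B56 gene, was the only one of the chosen subunit genes that passed the test on Dox withdrawal in Ppp2r1b_R, and it fell in the other targeted clones as well. Probe ILMN_3121851 read 11.14, 11.17 and 11.05 with Dox and 10.78, 10.88 and 10.73 without in Ppp2r1b_R. In Control_R it read 11.73, 11.81 and 12.00 with Dox and 11.67, 11.72 and 11.72 without. The media did not overlap in Ppp2r1b_R, where the probe fell by 0.33 (SE 0.07, limma adjusted p = 6.73e-04).

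The same probe fell by 0.53 in Ppm1g_R, by 0.48 on the arrays labelled Chek1_R and by 0.39 in Bub1b_R (limma adjusted p = 2.07e-06, 2.86e-06 and 7.64e-05), and moved by -0.14 in Control_R (95% interval -0.27 to 0.00, limma adjusted p = 0.225). The fall in Ppp2r1b_R minus the change in Control_R was -0.19 (95% interval -0.38 to 0.00, limma adjusted p = 0.223), and minus the mean of the 3 other clones it was 0.14 (95% interval -0.02 to 0.30, limma adjusted p = 0.234), or 0.13 without the arrays labelled Chek1_R (limma adjusted p = 0.307). The fall in Ppp2r1b_R was thus not shown to differ from the change in Control_R or from the mean change of the other targeted clones. Its difference from each single targeted clone was not tested. All 5 changes, Control_R included, ran in the same direction.

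A second Ppp2r5c probe, ILMN_3046283, gave the same order of media and a different order of clones. In Ppp2r1b_R it read 11.93, 11.88 and 11.91 with Dox and 11.65, 11.51 and 11.53 without. It fell by 0.34 in Ppp2r1b_R (SE 0.07, limma adjusted p = 1.05e-03), by 0.53 in Ppm1g_R, by 0.36 on the arrays labelled Chek1_R and by 0.42 in Bub1b_R (limma adjusted p = 6.16e-06, 3.66e-04 and 9.28e-05). At this probe Control_R fell as well, from 12.11, 12.04 and 12.09 with Dox to 11.78, 11.75 and 11.89 without, by 0.27 (SE 0.07, limma adjusted p = 0.0199), a call lost with median scaling (-0.28, limma adjusted p = 0.163). The media did not overlap in any of the 5 clones.

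**Figure D3:**
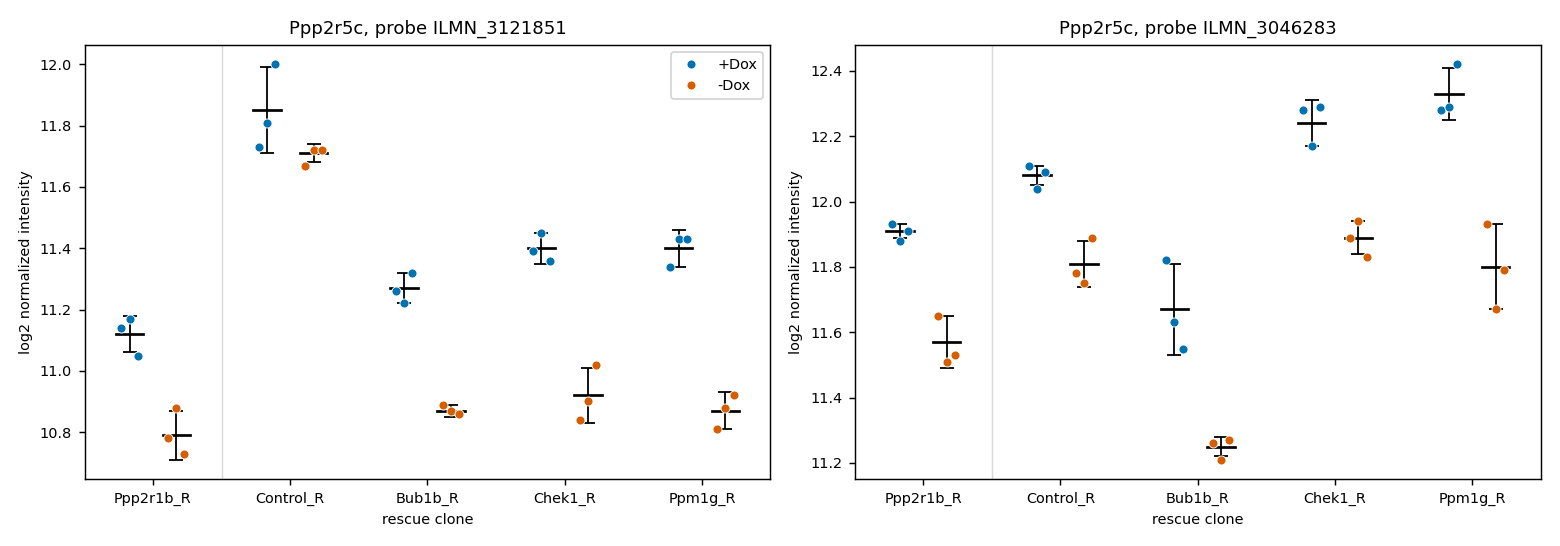
Levels of Ppp2r5c (log2 normalized intensity, vertical axes) at probes ILMN_3121851 (left) and ILMN_3046283 (right) on each array by rescue clone, with Dox in blue and without in orange; bars are the mean and SD of 3 arrays. At both probes the arrays without Dox lie below those with Dox in each clone, and without Dox Control_R lies above all 4 other clones on the left, while on the right Ppp2r1b_R and Bub1b_R lie below it, their means by 0.24 and 0.56, and Chek1_R and Ppm1g_R overlap it.

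In level, the 2 bright Ppp2r5c probes disagreed. Without Dox, ILMN_3121851 was lower than in Control_R by a log2 difference of -0.91 in Ppp2r1b_R (1.88-fold, SE 0.07, limma adjusted p = 1.83e-11), -0.84 in Ppm1g_R, -0.79 on the arrays labelled Chek1_R and -0.83 in Bub1b_R. With Dox the difference in Ppp2r1b_R was -0.72 (limma adjusted p = 1.82e-09). At ILMN_3046283 the 4 differences without Dox were -0.24, -0.01, 0.08 and -0.56 in the same order, and with median scaling the first was -0.62 (limma adjusted p = 1.11e-05) and the last -0.33 (limma adjusted p = 8.88e-03). Within its array set, Ppp2r1b_R without Dox was lower at ILMN_3046283 than Chek1_R and Ppm1g_R together by a log2 difference of -0.27 (limma adjusted p = 6.22e-04) and than Ppm1g_R alone by -0.23 (limma adjusted p = 9.37e-03), or -0.64 and -0.52 with median scaling (limma adjusted p = 1.01e-06 and 1.67e-04). At ILMN_3121851 the difference from the 2 clones together was -0.10 (limma adjusted p = 0.145) and from Ppm1g_R alone -0.08 (limma adjusted p = 0.348), or -0.46 and -0.38 with median scaling (limma adjusted p = 1.10e-05 and 7.51e-04). With Dox, added after the data were seen, both of these differences were -0.28 (limma adjusted p = 3.53e-04 and 1.32e-03). With median scaling they became -0.63 and -0.67 (limma adjusted p = 2.20e-07 and 6.57e-07), past the 1.5-fold limit. Of these 2 probes, Control_R thus stood apart from all 4 clones at the first only. Bub1b_R shares its array set but not its range of sample records.

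The remaining tested Ppp2r5c probe, ILMN_2742461, was dim: it was detected on 11 arrays, among them all 6 of Control_R. Its level in Control_R with Dox was at least 1.22-fold that in Ppp2r1b_R with Dox, where no array detected it (limma adjusted p = 0.0163). The bound takes for each dim array its own signal or that of its dimmest detected probe, whichever is higher. Without Dox its mean of 6.00 in Control_R was above those of Ppp2r1b_R, Ppm1g_R, Chek1_R and Bub1b_R (limma adjusted p = 0.0126, 7.07e-05, 4.48e-03 and 2.65e-03), where 1, 0, 0 and 1 of 3 arrays detected it, and the arrays of Control_R and Ppp2r1b_R overlapped. Which transcripts each of the 3 probes reads is not given in the sources used here.

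Ppp2r5d, another B56 gene, had 4 tested probes. On Dox withdrawal in Ppp2r1b_R none passed the test, the changes being -0.08 at ILMN_2608394, -0.06 at ILMN_1250063, 0.17 at ILMN_2596907 and -0.29 at ILMN_2956881 (limma adjusted p = 0.566, 0.682, 0.442 and 0.193). Without Dox all 4 read lower in Ppp2r1b_R than in Control_R, and 3 passed the test: ILMN_2956881 by -0.47, ILMN_2608394 by -0.41 and ILMN_1250063 by -0.38 (limma adjusted p = 0.0131, 4.72e-04 and 5.87e-04). Probe ILMN_2608394, with the smallest p, read 10.10, 10.03 and 9.80 against 10.26, 10.49 and 10.41. The 2 clones did not overlap at this probe, and with arrays set to the same median the difference was -0.64 (limma adjusted p = 1.59e-06), past the 1.5-fold limit, or -0.46 relative to the median of all probes. Ppm1g_R had -0.50 there (limma adjusted p = 5.50e-05), and between Ppp2r1b_R and Ppm1g_R the difference was 0.09 (95% interval -0.10 to 0.28, limma adjusted p = 0.456). From the arrays labelled Chek1_R, Ppp2r1b_R without Dox differed by -0.32 at this probe, by -0.42 at ILMN_2596907 and by -0.22 at ILMN_1250063 (limma adjusted p = 6.35e-03, 0.0224 and 0.0432). With median scaling these became -0.70, -0.62 and -0.52 (limma adjusted p = 7.56e-07, 1.34e-03 and 2.52e-05). The difference from Ppm1g_R at ILMN_2608394 then turned to -0.20 (limma adjusted p = 0.0891). From Chek1_R and Ppm1g_R together the 4 probes differed by -0.32 to -0.10. With median scaling these were -0.47 to -0.36, and all 4 passed the test (largest limma adjusted p = 0.0177).

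Ppp2r5e, also a B56 gene, had a bright probe, ILMN_1217444, and a dimmer one, ILMN_2623244. The bright probe read 10.54, 10.39 and 10.53 in Ppp2r1b_R without Dox and 10.23, 10.18 and 10.24 in Control_R without Dox. It was higher in Ppp2r1b_R by 0.27 (SE 0.06, limma adjusted p = 7.84e-04), without overlap, but by 0.01 with arrays set to the same median (limma adjusted p = 0.939), or 0.19 relative to the median of all probes. The bright probe was also above Control_R in Ppm1g_R by 0.25 (limma adjusted p = 1.65e-03) and on the arrays labelled Chek1_R by 0.22 (limma adjusted p = 4.35e-03), and Ppp2r1b_R differed from these 2 clones by 0.03 (limma adjusted p = 0.653) and from Ppm1g_R alone by 0.02 (limma adjusted p = 0.817), which with median scaling turned to -0.32 and -0.27 (limma adjusted p = 1.70e-03 and 0.0197), or -0.13 and -0.12 relative to the median of all probes. The dimmer probe differed from Control_R by -0.01 (95% interval -0.25 to 0.23, limma adjusted p = 0.945). On Dox withdrawal the 2 probes moved by 0.11 and -0.08 (limma adjusted p = 0.251 and 0.676).

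Changes on Dox withdrawal were counted over the 14 tested probes, which belong to 8 genes. Ppp2r5d has 4 of these probes, Ppp2r5c 3 and Ppp2r5e 2, so that counts and medians repeat genes. In Ppp2r1b_R 0 of 14 changed, where 4.82% of all tested probes did, and 2 of 14 passed the test (both Ppp2r5c), where 25.3% of all did. The median of the 14 changes was -0.05 and that of all tested probes -0.01, and the median size of a change was 0.08 for the subunits and 0.17 for all. For the change minus that in Control_R, 0 of 14 changed or passed the test (3.28% and 8.28% of all probes), and the same held against the mean of the 3 other clones (3.17% and 14% of all) and without the arrays labelled Chek1_R (3.48% and 12.8% of all). At an unadjusted p under 0.05 in the same limma fit, 0 of 14 probes passed for the first and second of these differences of changes. For that without the arrays labelled Chek1_R 1 passed (Ppp2r5d ILMN_2956881, -0.42), and for the withdrawal itself 2. The share of all probes at an unadjusted p is not given here, so that these counts cannot be read against the array. The methods' t-test called 0 of 14 as changed on withdrawal, beside 1.36% of all probes with adjustment and 4.13% without.

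With quantile normalization the other clones gave like counts on withdrawal. In Control_R 0 of 14 changed (1.1% of all probes) and 1 passed the test (7.55% of all). In Ppm1g_R 0 changed (4.37%) and 2 passed (23.4%), and in Bub1b_R 0 changed (5.6%) and 3 passed (24.4%). On the arrays labelled Chek1_R 0 changed (9.27%) and 3 passed (30.9%). At least 1 Ppp2r5c probe was among those that passed in each clone. With median scaling 2 of 14 changed in Ppm1g_R, beside 4.95% of all probes. These were Ppp2r5c probes ILMN_3121851 (-0.61) and ILMN_3046283 (-0.63).

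In level, more probes differed, as they did across the array. Without Dox, 1 of 14 (Ppp2r5c ILMN_3121851) changed between Ppp2r1b_R and Control_R, where 33.7% of all probes did, and 11 passed the test (3 higher, 8 lower), where 65.4% of all did (29.5% higher, 35.9% lower). With Dox 2 changed (Ppp2r1b and Ppp2r5c ILMN_3121851), against 28.3% of all, and 8 passed the test, against 61.3% of all. Against Chek1_R and Ppm1g_R without Dox, 1 of 14 changed (Ppp2r1b), against 14.9% of all, and 5 passed the test, against 52.1% of all. Against Ppm1g_R alone 1 changed (Ppp2r1b) and 4 passed, against 19.9% and 50.9% of all. With quantile normalization the changed probes were a smaller share of the subunits than of the array in each of these comparisons. With median scaling 5, 4 and 3 of 14 changed against Control_R without Dox, Control_R with Dox and the 2 clones together, beside 37.1%, 31.3% and 20.7% of all probes, shares near those of the array and in the last slightly above it. Against Ppm1g_R alone without Dox 2 of 14 then changed, beside 23.3% of all probes. Against the arrays labelled Chek1_R alone 5 changed (1 with quantile normalization), beside 23.65% of all, a share above the array's. With Dox, where these comparisons were added after the data were seen, quantile normalization gave 1 changed probe against the 2 clones and 1 against Ppm1g_R alone. Median scaling gave 5 and 6, beside 13.5% and 21.6% of all, so that with this scaling the subunits' share was above the array's there. Of the probes that passed the test with quantile normalization, the subunits' share was above the array's for Control_R without Dox, led by the lower ones. It was below the array's for Control_R with Dox and, without Dox, for the 2 clones together and Ppm1g_R alone. In each of the 2 comparisons added with Dox 7 of 14 passed. For these 2 comparisons and for Chek1_R alone, the shares of all probes under quantile normalization are not given here. Their quantile counts hence cannot be read against the array.

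The clones with other targets had 3 changed subunit probes each against Control_R without Dox, where 22.6% (Bub1b_R), 28.8% (Chek1_R) and 33.5% (Ppm1g_R) of all probes changed. In each of these clones they were Ppp2r1b, which was higher, and Ppp2r5c probes ILMN_3121851 and ILMN_2742461, which were lower. At ILMN_2742461 no array of Ppm1g_R or Chek1_R without Dox and 1 of 3 of Bub1b_R detected the probe, and the bound on the fold was at least 1.28 in Ppm1g_R and at least 1.35 in Chek1_R, so that the bound leaves 1.5-fold neither reached nor missed in these 2 clones. These comparisons share the Control_R arrays.

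**Figure D4:**
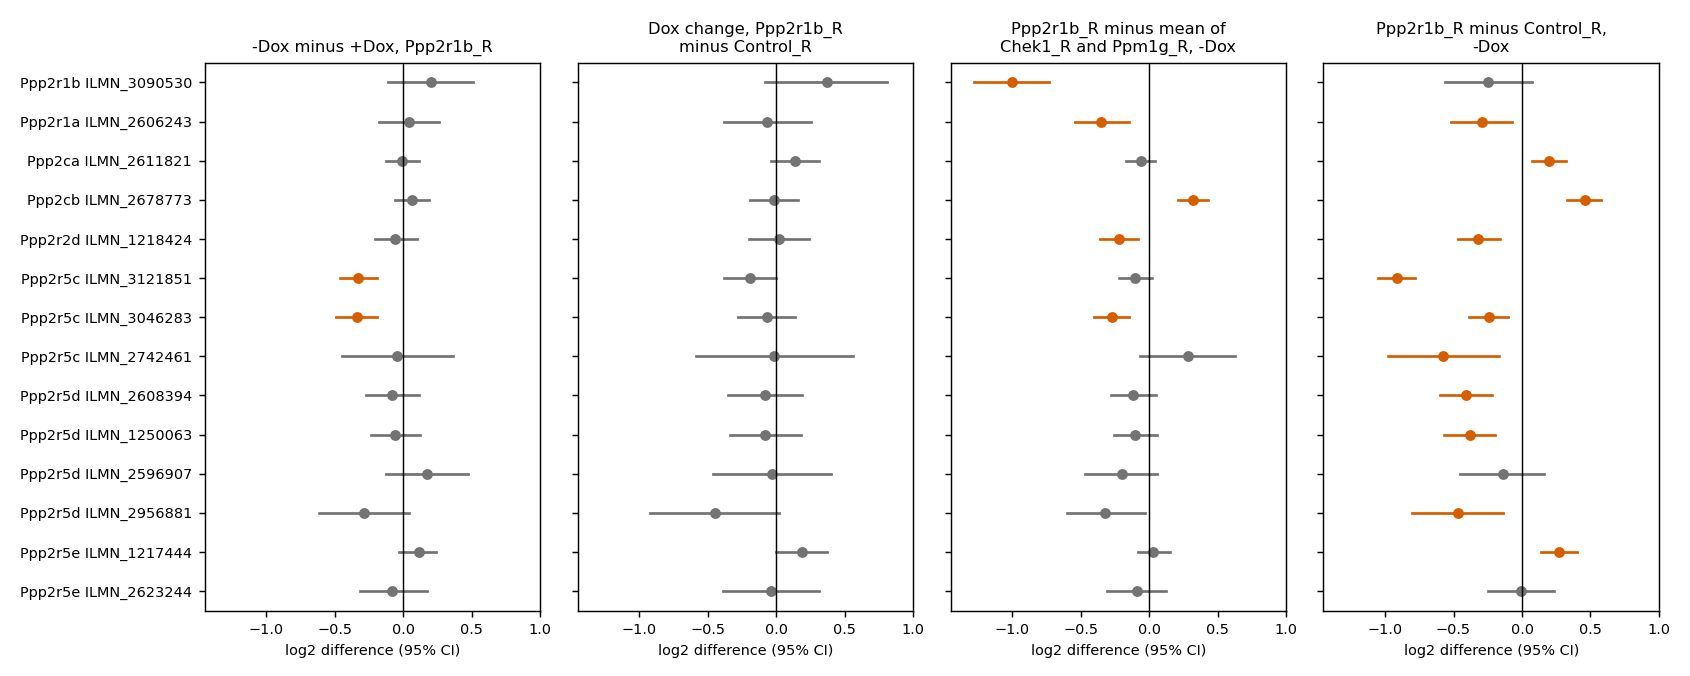
Log2 differences with 95% intervals (horizontal axes) for the 14 tested PP2A subunit probes in 4 comparisons, from left to right Dox withdrawal in Ppp2r1b_R, that change minus the change in Control_R, Ppp2r1b_R minus Chek1_R and Ppm1g_R without Dox, and Ppp2r1b_R minus Control_R without Dox. Orange marks an adjusted p under 0.05: only the 2 Ppp2r5c probes in the first panel, none in the second, 5 in the third and 11 in the fourth.

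Genes around PP2A were read from fixed lists. Of 9 further regulatory subunit genes, 6 had a probe and 4 were tested. On Dox withdrawal in Ppp2r1b_R 1 of the 4 passed the test, as lower, and 0 changed (median -0.14), where 12.9% of all probes passed as lower and 12.4% as higher. This was Ppp2r3c, which codes for a calcium-binding B subunit. It read 8.30, 8.38 and 8.35 with Dox and 8.11, 7.97 and 8.09 without in Ppp2r1b_R, while Control_R read 8.65, 8.58 and 8.57 with Dox and 8.81, 8.79 and 8.76 without. The 2 clones moved in opposite directions, -0.28 in Ppp2r1b_R (SE 0.06, limma adjusted p = 6.95e-04) and 0.19 in Control_R (limma adjusted p = 0.0445), and both calls were lost with median scaling (-0.25 and 0.21, limma adjusted p = 0.0745 and 0.245). Ppp2r3c fell in Ppm1g_R as well, by 0.24 (SE 0.06, limma adjusted p = 3.35e-03), a call kept with median scaling (-0.30, limma adjusted p = 0.0238). It moved by 0.01 in Bub1b_R and by 0.02 on the arrays labelled Chek1_R (limma adjusted p = 0.945 and 0.830). The fourth tested gene, Ppp2r2c of the B55 type, chosen here after its values were seen, moved by -0.06 (limma adjusted p = 0.833). Strn4, a striatin-type B subunit, moved by 0.14 (limma adjusted p = 0.264). Ppp2r5b (B56) was detected on 1 of 3 Ppp2r1b_R arrays with Dox and 0 of 3 without, so that no change is given for it.

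In level without Dox, 3 of these 4 genes passed the test as lower in Ppp2r1b_R than in Control_R and 1 as higher (median -0.53), where 35.9% of all probes passed as lower and 29.5% as higher, and 2 changed, both lower, where 33.7% of all probes did. Ppp2r3c was lower by a log2 difference of -0.73 (1.66-fold, SE 0.06, limma adjusted p = 9.28e-11), or -0.81 with median scaling (limma adjusted p = 2.57e-08), and the clones did not overlap. Within its array set it was lower than in Chek1_R and Ppm1g_R together by -0.45 (limma adjusted p = 4.23e-08) and than in Ppm1g_R alone by -0.43 (limma adjusted p = 8.38e-07), both under 1.5-fold, which became -0.67 and -0.62 with median scaling. The other changed gene was Ppp2r5b, undetected on the Ppp2r1b_R arrays without Dox, so that no fold is given for it. Strn4 was lower than in Control_R by -0.33 (limma adjusted p = 2.00e-03) and differed from Ppm1g_R alone by -0.08 (limma adjusted p = 0.454), or -0.32 with median scaling (limma adjusted p = 0.0142). Ppp2r2c was higher than in Control_R by 0.46 (limma adjusted p = 0.0278), with overlap.

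Of 14 genes for assembly, methylation and inhibition of PP2A, 12 had a probe and 9 were tested. In Ppp2r1b_R 1 passed the test as lower and 1 as higher on withdrawal, and 0 changed (median 0.00), a share of the list near the 25.3% of all probes that passed. The pair act on the same residue of the catalytic subunit: Lcmt1 methylates its last leucine and Ppme1 removes the methyl group. Lcmt1 read 11.28, 11.20 and 11.34 with Dox and 10.99, 10.82 and 10.95 without, and so fell by 0.35 (SE 0.07, limma adjusted p = 5.33e-04). Ppme1 read 11.11, 11.02 and 11.03 with Dox and 11.35, 11.39 and 11.47 without, and so rose by 0.35 (SE 0.06, limma adjusted p = 2.45e-04). Neither gene's media overlapped in this clone.

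Neither change was shown to differ from that in Control_R, by -0.24 for Lcmt1 (95% interval -0.44 to -0.04, limma adjusted p = 0.139) and 0.23 for Ppme1 (95% interval 0.04 to 0.41, limma adjusted p = 0.120). In Bub1b_R Lcmt1 fell by 0.31 and Ppme1 rose by 0.29 (limma adjusted p = 1.44e-03 and 1.12e-03), where the Lcmt1 call was lost with median scaling (-0.22, limma adjusted p = 0.111). On the arrays labelled Chek1_R the changes were -0.11 for Lcmt1 (limma adjusted p = 0.276) and 0.27 for Ppme1 (limma adjusted p = 1.74e-03), and in Ppm1g_R they were -0.08 and 0.08 (limma adjusted p = 0.456 and 0.433). C330027C09Rik, the mouse gene for the PP2A inhibitor CIP2A, moved by 0.22 in Ppp2r1b_R (limma adjusted p = 0.362). Of the 9 genes tested, 2 passed the test as higher than in Control_R without Dox and 4 as lower (median -0.12). By that test 29.5% of all probes were higher and 35.9% lower. The 1 that changed, beside 33.7% of all probes, was C330027C09Rik, as higher. Control_R without Dox detected it on 1 of 3 arrays, so that no fold is given. From Chek1_R and Ppm1g_R together it differed by 0.22 (limma adjusted p = 0.205).

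All 9 genes of the related phosphatases PP4 and PP6 were tested. In Ppp2r1b_R 1 passed the test on withdrawal, as higher, and 0 changed (median 0.02), beside 12.4% of all probes that passed as higher. This was Smek2, a PP4 regulatory subunit, which read 9.49, 9.36 and 9.47 with Dox and 9.83, 9.68 and 9.80 without and so rose by 0.33 (SE 0.08, limma adjusted p = 2.59e-03), or 0.32 with median scaling, where the call was lost (limma adjusted p = 0.0645). The rise was 0.27 in Ppm1g_R, 0.31 on the arrays labelled Chek1_R and 0.31 in Bub1b_R (limma adjusted p = 0.0128, 3.03e-03 and 4.29e-03), and in Ppm1g_R this call too was lost with median scaling (0.19, limma adjusted p = 0.261). Saps3, a PP6 regulatory subunit, moved by -0.14 (limma adjusted p = 0.163). Ppp4r2, of PP4, was detected on 0 of 3 Ppp2r1b_R arrays with Dox and 1 of 3 without, so that no change is given for it. In level without Dox, 3 of the 9 passed the test as higher than in Control_R and 2 as lower (median 0.04). By that test 29.5% of all probes were higher and 35.9% lower. Changed were 1 higher and 1 lower gene, beside 33.7% of all probes. Smek2 was higher by 0.69 (limma adjusted p = 3.51e-08), or 0.49 with median scaling. From Chek1_R and Ppm1g_R together it differed by 0.07 (limma adjusted p = 0.397), or -0.25 with median scaling (limma adjusted p = 0.0364).

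The 5 genes whose level was most like that of Ppp2r1b over the 10 condition means were Napa, Myd88, Aggf1, Ppp4r1l and Ccdc12, with Pearson r of 0.965, 0.956, 0.955, 0.953 and 0.952. Napa, Myd88, Aggf1 and Ppp4r1l had their lowest mean in Ppp2r1b_R with Dox, as Ppp2r1b did, and Ccdc12 in Ppp2r1b_R without it. The 10 points share clones and array sets, and the values are descriptions.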

How the data were processed

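RNA of the 5 rescue clones, with and without Dox, had been hybridized to 30 Illumina Mouse WG-8 arrays. The authors deposited signal intensities that had not been normalized, each with its detection p-value; their processing notes name lumi, without a version. Detection p cells turned into dates (46 on Ppm1g_R -Dox replicate 2, 14 on Bub1b_R -Dox replicate 2) were converted back where possible (28 and 6), and the rest took the value of the probe with the nearest signal.

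Intensities were normalized with neqc (limma 3.58.1, R 4.3.3; offset 16, quantiles over 30 arrays, log2). Probes were kept if 3 or more arrays detected them (detection p under 0.05), and these 15151 entered 1 limma fit with a mean for each of 10 conditions (20 residual and 3.38 prior degrees of freedom), and p-values were adjusted by Benjamini-Hochberg over them. Members, lists and tests were chosen with earlier results of these data known. Named were all members with their probes, and of each list the 3 genes with the largest change in Ppp2r1b_R at their brightest probe. Replicate numbers did not pair the arrays (correlations of deviations between -0.212 and 0.131). The number of arrays limits the precision. The 2 genes without a probe were left out.

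Alternatives were the background correction, scaling, offset, detection filter, fold limit, arrays in the fit, a replicate block, the methods' t-test and leaving out each array. The comparisons with Dox between array-set mates and those without the arrays labelled Chek1_R were added after the data were seen. Sequences came from the study's construct and oligo lists.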

Additional observations from a re-analysis of the deposited data

Results flagged for a closer look

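Over 23 probes, 14 of the PP2A subunits and 9 of genes named from the related lists, and 6 comparisons between clones, in 4 genes the fitted change on Dox withdrawal differed between clones by limma's test of the difference of changes (n = 3 arrays per condition). Of the 23, 1 passed for Ppp2r1b_R minus Control_R, 1 against the mean of the 3 other clones, 0 against that of Bub1b_R and Ppm1g_R, and 1, 1 and 4 for Bub1b_R, Chek1_R and Ppm1g_R minus Control_R, beside 8.28%, 14%, 12.8%, 12.2%, 18.3% and 12% of all probes. The 9 were named for the size of their change in Ppp2r1b_R, so that their counts for Ppp2r1b_R, Ppp2r3c among them, cannot be read against these shares; none of the 14 subunit probes passed for Ppp2r1b_R. The tests of Bub1b_R, Chek1_R and Ppm1g_R against Control_R were added after the data were seen, as was median scaling of these differences.

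Ppp2ca, a catalytic subunit gene, moved by 0.14 in Bub1b_R and 0.13 in Ppm1g_R and by -0.15 in Control_R. Its change minus that in Control_R was 0.28 in Bub1b_R (SE 0.08, limma adjusted p = 0.0282) and 0.28 in Ppm1g_R (SE 0.08, limma adjusted p = 0.0308). With arrays set to the same median neither passed the test, at 0.33 (limma adjusted p = 0.110) and 0.06 (limma adjusted p = 0.820). In Ppp2r1b_R the difference under quantile normalization was 0.14 (limma adjusted p = 0.347).

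Ppp2r5c, a B56 gene, fell more than in Control_R at probe ILMN_3121851, with a difference of changes of -0.35 on the arrays labelled Chek1_R (SE 0.09, limma adjusted p = 0.010) and -0.39 in Ppm1g_R (SE 0.09, limma adjusted p = 6.13e-03). With median scaling these were -0.23 (limma adjusted p = 0.259), a call lost, and -0.48 (limma adjusted p = 0.0164). At probe ILMN_3046283 the differences under quantile normalization were -0.09 and -0.26 (limma adjusted p = 0.633 and 0.0996).

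Ppp2r3c, a further regulatory subunit gene, was the only related gene named here whose change in Ppp2r1b_R passed the test against Control_R, with a difference of -0.47 (SE 0.08, limma adjusted p = 6.43e-04). Against the mean of the 3 other targeted clones it was -0.21 (SE 0.07, limma adjusted p = 0.0308), and without the arrays labelled Chek1_R it was -0.17 (limma adjusted p = 0.119). Ppm1g_R minus Control_R gave -0.43 (SE 0.08, limma adjusted p = 9.10e-04). With median scaling the first 2 were -0.46 and -0.21 and did not pass the test (limma adjusted p = 0.0591 and 0.256), while Ppm1g_R minus Control_R did (-0.51, limma adjusted p = 0.0133).

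Ppp4r2, a PP4 regulatory subunit gene, had a difference of -0.81 between Ppm1g_R and Control_R (SE 0.20, limma adjusted p = 8.79e-03), but its probe was detected on 0 of 3 Control_R arrays with Dox and 1 of 3 without, and on 3 of 3 and 1 of 3 in Ppm1g_R, so that the size is that of signals mostly not above background and no change in level is read from it.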

How the results depend on the processing

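Besides the 13 counts of changed subunit probes, 813 values of 64 single-probe results were recomputed under the alternatives; these were the subunit probes that passed the test in a comparison, and Ppp2r1b in all 13. Of these values, 783 kept their direction and their side of the limits, 8 fell below a limit, 20 rose past it and 2 reversed. Both of these reversals came with median scaling: Ppp2ca in Ppp2r1b_R against Control_R without Dox went to -0.29, and Ppp2cb against Chek1_R and Ppm1g_R without Dox to -0.09. That scaling moved the median of all probes to -0.18 and -0.19, and relative to it Ppp2ca stood at -0.11 and Ppp2cb at 0.10, so that Ppp2cb did not reverse against the median. Among the probes of these 13 comparisons that had not passed the test, Ppp2r5e ILMN_1217444 against Chek1_R and Ppm1g_R without Dox (0.03) and Ppp2ca against Control_R with Dox (0.06) also turned with median scaling, to -0.32 and -0.44, and then passed it (limma adjusted p = 1.70e-03 and 1.09e-04). Differences in the comparisons added after the data were seen turned as well, for example Ppp2ca against Chek1_R and Ppm1g_R with Dox from 0.05 to -0.45 and against Ppm1g_R alone from 0.03 to -0.48. Setting arrays to the same median gave 5 changed probes (in place of 1) for Ppp2r1b_R against Control_R without Dox, 4 (in place of 2) with Dox, 3 (in place of 1) against Chek1_R and Ppm1g_R without Dox, and 2 (in place of 0) on withdrawal in Ppm1g_R. Without Dox it gave 2 against Ppm1g_R alone and 5 against Chek1_R alone, each in place of 1. With Dox it gave 5 against Chek1_R and Ppm1g_R and 6 against Ppm1g_R alone, each in place of 1. The cause was not tested. Without background correction Ppp2r1b_R against Control_R without Dox gave 2, beside 36.7% of all probes. An offset of 50, which compresses dim probes, gave 1 for Ppp2r1b_R against Control_R with Dox, beside 19% of all. It also gave 1 (in place of 3) for Chek1_R against Control_R without Dox, beside 19.9% of all. Without a fold limit Ppp2r1b_R against Control_R gave 11 without Dox and 8 with it, beside 65.4% and 61.3% of all probes. Against Chek1_R and Ppm1g_R without Dox it gave 5, beside 52.1% of all. Bub1b_R, Chek1_R and Ppm1g_R against Control_R without Dox gave 7 each, beside 52.9%, 60.6% and 64.8% of all. On withdrawal the counts were 2 in Ppp2r1b_R, 3 in Bub1b_R, 3 in Chek1_R, 2 in Ppm1g_R and 1 in Control_R. The shares of all probes there were 25.3%, 24.4%, 30.9%, 23.4% and 7.55%. With a 2-fold limit both comparisons of Ppp2r1b_R with Control_R gave 0, where at 1.5-fold they gave 1 and 2. At 2-fold 13.2% of all probes changed without Dox and 9.8% with it.

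Leaving out 1 array at a time gave 1 to 2 changed probes for Ppp2r1b_R against Control_R without Dox (2 without Ppp2r1b_R -Dox replicate 1 or Control_R -Dox replicate 3), 1 to 3 with Dox, 0 to 1 on withdrawal in Ppm1g_R (1 without its -Dox replicate 1), 2 to 4 for Bub1b_R, 2 to 3 for Chek1_R and 3 to 4 for Ppm1g_R against Control_R. For the other 7 comparisons the count did not move. With the replicate number as a block, the counts of all changed probes were 0.970 to 1.01 times those without it, and the subunit counts (for example 1 for Ppp2r1b_R against Control_R without Dox and 0 on withdrawal) stayed within 1.5 times. Dim probes limit what can be seen: Ppp2r5c probe ILMN_2742461 was detected on 11 of 30 arrays.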
